A study of Mus musculus with 18 samples.

Results

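The reads described here are internal fragments of the mouse mitochondrial tRNA for arginine (mt-TR) that lost bases at both ends and stopped short of the place where the most abundant 5′ fragment of this tRNA ends. That place, called the site, held the ends of 48.1% of the reads in the table. It lies 19 nt before the mature 3′ end, at nt 52 in mitochondrial DNA (mtDNA) of type C, nt 53 in type F and nt 54 in type H. A fragment was taken when it started past nt 1 and ended 20 or more nt before the mature end. Rows of the count table with these properties numbered 87 of 679 and held 2890 of 121943 reads. For comparison, 14 rows started at nt 1 and ended before the site, and 17 rows started past nt 1 and ended at the site.

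Liver of healthy adult female mice was studied in 6 strains, each with 3 libraries. Of the pair of letters in a strain's name, the first is the nuclear genome and the other the mtDNA (C, C57BL/6J; F, FVB/NJ; H, C3H/HeN). The wild-type strains are CC, FF and HH. The mitochondrial-nuclear exchange (MNX) strains are CF, CH and HC, made by moving pronuclei between fertilised oocytes so that the nucleus of 1 strain works with the mtDNA of another. Small RNA that had passed an integrity check was pooled and, in all groups, treated enzymatically to remove some base methylation and to repair blocked ends, so libraries, not animals, are the replicates, and how many mice each one stands for is not analysed here.

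Mature mitochondrial tRNAs are cut out of a long transcript, receive a CCA tail and fold into an acceptor stem, a D region, an anticodon arm, a variable region and a T arm. Cleavage of such tRNAs gives tRNA-derived fragments (tRF). A 5′ tRF keeps the first base, whereas an internal tRF has lost bases on both sides. The D region of mouse mt-TR carries a run of T and a run of A whose lengths differ between mouse strains.

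The 3 mature sequences are printed first because every position below refers to them. Capitals mark the GA dinucleotides after which reads ended 28, 22 and 19 nt before the mature end. T stands for U, as in the table.
mt-TR of type C: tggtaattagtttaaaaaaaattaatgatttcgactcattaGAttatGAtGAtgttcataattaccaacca
mt-TR of type F: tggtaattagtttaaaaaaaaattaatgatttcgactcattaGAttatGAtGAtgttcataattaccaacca
mt-TR of type H: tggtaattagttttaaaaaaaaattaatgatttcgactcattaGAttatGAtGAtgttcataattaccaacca

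The molecule with its CCA tail measures 73 nt in H, 72 nt in F and 71 nt in C, and only the runs in the D region differ. It is encoded by mt-Tr (ENSMUSG00000064361.1), a gene with a single exon of 68 bases on the plus strand of chromosome M, positions 9808 to 9875 of GRCm38 (mm10). In type C, complementary bases place the variable region at nt 41 to 44, the 5′ strand of the T stem at nt 45 to 49 and the T loop at nt 50 to 55. The site therefore lies in the T loop. Distance from the mature end is the same place in all 3 types, and it is used below to name ends.

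The fragments with the highest mean share in each type are shown with the last 2 bases in capitals, because their ends are what the comparison with nt 1 reads turns on. The first 5 belong to type C, the next 5 to F and the last 5 to H.
C, nt 4 to 43: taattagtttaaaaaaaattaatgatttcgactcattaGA
C, nt 2 to 43: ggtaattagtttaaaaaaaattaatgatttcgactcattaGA
C, nt 7 to 49: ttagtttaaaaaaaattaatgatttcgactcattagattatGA
C, nt 3 to 43: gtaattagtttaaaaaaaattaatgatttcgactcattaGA
C, nt 11 to 50: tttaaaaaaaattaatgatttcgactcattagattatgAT
F, nt 11 to 50: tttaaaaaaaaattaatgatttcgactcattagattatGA
F, nt 2 to 44: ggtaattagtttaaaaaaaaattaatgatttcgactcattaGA
F, nt 4 to 44: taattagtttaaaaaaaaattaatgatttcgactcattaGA
F, nt 6 to 46: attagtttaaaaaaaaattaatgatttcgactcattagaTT
F, nt 7 to 50: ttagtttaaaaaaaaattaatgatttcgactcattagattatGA
H, nt 11 to 51: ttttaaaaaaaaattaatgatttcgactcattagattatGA
H, nt 2 to 45: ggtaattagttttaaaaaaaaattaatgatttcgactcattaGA
H, nt 11 to 52: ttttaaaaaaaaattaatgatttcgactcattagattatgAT
H, nt 12 to 51: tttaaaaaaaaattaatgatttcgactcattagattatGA
H, nt 4 to 45: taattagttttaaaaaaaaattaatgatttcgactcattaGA

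Of these 15, 12 ended after GA. The F fragment from nt 11 to 50 and the H fragment from nt 12 to 51 have the same letters, although the H molecule has 1 more base in front of that start. The C fragments from nt 4, 2 and 3 to nt 43 cover positions 9811 to 9850, 9809 to 9850 and 9810 to 9850 of chromosome M, and those from nt 7 to 49 and nt 11 to 50 cover 9814 to 9856 and 9818 to 9857.

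For the most used ends, the matching 5′ fragments of type C, which keep nt 1, are printed as comparators, again with the last 2 bases in capitals.
nt 1 to 43: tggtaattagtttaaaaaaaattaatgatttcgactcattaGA
nt 1 to 45: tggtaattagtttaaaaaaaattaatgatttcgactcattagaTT
nt 1 to 49: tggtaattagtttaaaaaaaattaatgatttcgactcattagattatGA

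The table holds reads of 40 to 69 nt, and this limit shapes what can be seen. A fragment with a later start must have a later end, so of the 66 combinations of start and end that fit the rule and the length limit in type C, 56 had reads, against 69 of 78 in F and 63 of 91 in H. C reads started at nt 2 to 12, F reads at nt 2 to 12 and H reads at nt 2 to 14. Because the table leaves out the extra bases of F and H, 20 of the 87 rows are written with fewer than 40 letters, and these held 141 F reads, 150 H reads and 0 C reads. Reads of all 3 types were present in 39 rows, H reads alone in 14, F reads alone in 9, and F and H reads without C reads in 8. A single library supplied 13 rows, and 12 rows rested on 1 read.

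The libraries held between 189 and 23805 reads, with 4 of the 18 below 1000. Every wild-type library was deeper than every MNX library of the same mtDNA type, so nuclear genome and depth cannot be told apart in comparisons within a type. Pairs of libraries of a strain differed by chi-square test beyond counting noise, apart from CH replicates 1 and 2 (p = 0.0847), and no libraries were identical or merged. The p-values below measure only the spread between libraries, which may be technical. Wilson intervals and limits for a count of 0 cover counting error only.

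As a share of all reads in a library, the internal fragments that ended before the site were a small class in every strain. They made up 5.82%, 2.02% and 1.78% of reads in the CC replicates and 2.59%, 1.87% and 1.38% in the HC replicates. In FF they made up 1.69%, 1.87% and 2.05%, and in CF 1.38%, 2.67% and 1.06%. The HH shares were 0.945%, 3.08% and 1.51%, and the CH shares 0.524%, 0.862% and 2.55%. The ranges of the strains overlapped apart from CC replicate 1, whose share (95% Wilson interval 5.46 to 6.21) was above that of every other library. The intervals were wide in shallow libraries, from 0.291 to 3.78 in CF replicate 3 and from 0.0925 to 2.91 in CH replicate 1.

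By mtDNA type, the share averaged 2.58% ± 1.64 in C, 1.78% ± 0.56 in F and 1.58% ± 1.02 in H (mean ± SD, n = 6 libraries). These differences were smaller than the spread between libraries of type C. Without CC replicate 1 the C mean was 1.93%. No p-value is given for this pooled share. Single libraries supplied much of each type's reads, with 48.9% of the C reads of this class from CC replicate 1, 56.5% of the H reads from HH replicate 2 and 34.6% of the F reads from FF replicate 1.

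The 5′ fragments that ended before the site were far more abundant than the internal ones. They made up 30.3% ± 10.7 of reads in C, 24.8% ± 7.61 in F and 16.04% ± 6.00 in H (mean ± SD, n = 6 libraries). For 100 such nt 1 reads there were 9.59 ± 7.08 internal reads in C, 7.30 ± 1.15 in F and 9.79 ± 4.32 in H (mean ± SD, n = 6 libraries). The order of F and H in the share of internal fragments was not stable, since H lay above F when reads were summed over libraries (2.09% against 1.85%) and in libraries of 1000 or more reads (2.02% against 1.93%). At the site itself there were 84.4 ± 70.04 internal reads for 100 nt 1 reads in C, 51.5 ± 40.6 in F and 88.7 ± 29.7 in H. The length limit admits later starts at the site than at earlier ends, so these ratios are not like for like. In C, 6285 site-ended reads began at nt 11, against 98 reads that ended before the site. Start by start in C, the ratios at the site and at 28 nt were 2.44 and 1.99 from nt 2, 0.554 and 0.484 from nt 3, and 1.37 and 3.49 from nt 4. Without CC replicate 1 the ratio from nt 4 at 28 nt was 1.35. The 1.37 at the site still contains this library, so these 2 values are not like for like.

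Where the internal fragments ended was examined next. The reads were concentrated at a few of the 13 distances. The end 28 nt before the mature end held 38.8% of the reads (1122 reads), the end at 22 nt held 26.4% (763 reads) and the end at 26 nt held 9.72% (281 reads). The ends at 20, 25 and 21 nt followed with 7.79%, 7.06% and 4.84%. Each of the other 7 ends held at most 51 reads. By mean share over the 18 libraries, which weights libraries equally, 28 and 22 again came first (0.632% and 0.462%), and 21, 26 and 20 could not be ordered (0.196%, 0.193% and 0.193%).

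By the folded structure, the ends lay in the variable region and on the 5′ side of the T arm. In C, 46.2% of the reads ended in the variable region, 43.3% in the 5′ strand of the T stem and 10.5% in the T loop. In F these shares were 37.0%, 46.2% and 15.9%, and in H they were 28.1%, 51.3% and 17.3%. The 3′ strand of the anticodon stem received 0.851% of the F reads and 3.34% of the H reads. With its shorter D region, a C fragment that ended there could have 40 nt only if it kept nt 1. Almost none of these fragments therefore ended in the anticodon arm itself, within the lengths held.

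The end 28 nt before the mature end, the last but one base of the variable region, was the main end in type C. Its internal reads made up 2.39%, 0.923% and 0.882% of reads in CC and 0.682%, 0.970% and 0.544% in HC. In FF they made up 0.677%, 0.712% and 0.473%, and in CF 0.165%, 0.720% and 0%. The HH shares were 0%, 0.849% and 0.224%, and the CH shares 0%, 0.431% and 0.733%. Apart from CC replicate 1, libraries of all types overlapped. The 0 in HH replicate 1 stood out, since 0 of 4233 reads allows a share of up to 0.0709%, while the 0 of 189 reads in CF replicate 3 allows up to 1.59% and the 0 of 191 reads in CH replicate 1 up to 1.57%. The type means were 1.07% ± 0.67 in C, 0.458% ± 0.309 in F and 0.373% ± 0.363 in H (mean ± SD, n = 6 libraries). The C mean was 0.800% ± 0.180 without CC replicate 1.

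The end 22 nt before the mature end closes the 5′ strand of the T stem. Internal reads with this end made up 1.69%, 0.487% and 0.319% of reads in CC, against 0.136%, 0.129% and 0.101% in HC. They made up 0.484%, 0.601% and 0.718% in FF and 0.110%, 0.678% and 0.529% in CF. In HH the shares were 0.142%, 1.35% and 0.419%, and in CH 0%, 0% and 0.431%. All 3 CC libraries lay above all 3 HC libraries, whereas the strains of the other types overlapped. The type means of 0.477% ± 0.612 in C, 0.520% ± 0.219 in F and 0.390% ± 0.508 in H (mean ± SD, n = 6 libraries) were within the spread. The C mean was 0.235% ± 0.166 without CC replicate 1. Reads from nt 1 showed the same order of CC and HC at this end, as given below.

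The end 21 nt before the mature end, the first base of the T loop, rested on few reads. It held 140 reads over 16 libraries. Its means were 0.244% ± 0.290 in C, 0.149% ± 0.126 in F and 0.196% ± 0.179 in H (mean ± SD, n = 6 libraries). Its highest share, 0.819% in HC replicate 1, came from 6 reads.

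Starts were uneven too. Reads that began at nt 4 made up 27.3% of all internal reads that ended before the site, those that began at nt 2 made up 24.0%, those at nt 7 15.4% and those at nt 11 11.5%. By mean share over the 18 libraries the order was nt 2 (0.491%), nt 4 (0.393%), nt 11 (0.376%) and nt 7 (0.245%). Each of the other starts held at most 193 reads.

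Start nt 2, where only the first base of the acceptor stem is lost, had the highest mean share over the 18 libraries. Its reads made up 0.450%, 0.637% and 0.748% of reads in CC and 0.409%, 0.646% and 0.443% in HC. In FF they made up 0.587%, 0.538% and 0.519%, and in CF 0.441%, 0.720% and 0%. The HH shares were 0.165%, 0.531% and 0.363%, and the CH shares 0%, 0.862% and 0.777%. The type means of 0.555% ± 0.139 in C, 0.467% ± 0.247 in F and 0.450% ± 0.339 in H (mean ± SD, n = 6 libraries) lay close together, and CC replicate 1 was not high at this start.

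Start nt 4 showed the opposite pattern, with most of its reads in 1 library. It made up 2.88%, 0.493% and 0.399% of reads in CC and 0.409%, 0.452% and 0.164% in HC. In FF it made up 0.193%, 0.348% and 0.244%, and in CF 0.0551%, 0.424% and 0%. The HH shares were 0%, 0.409% and 0.307%, and the CH shares 0%, 0% and 0.302%. Of its 789 reads, 441 came from CC replicate 1. The C mean was 0.799% ± 1.02 with that library and 0.384% ± 0.128 without it, against 0.211% ± 0.164 in F and 0.170% ± 0.190 in H (mean ± SD, n = 6 libraries). Start nt 7, which leaves 1 base of the 5′ acceptor strand, shared this pattern, with 1.37% of reads in CC replicate 1, at most 0.409% elsewhere, and a C mean of 0.418% that was 0.228% without that library.

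Start nt 11, in front of the T run of the D region, had means of 0.255% ± 0.211 in C, 0.454% ± 0.147 in F and 0.419% ± 0.313 in H (mean ± SD, n = 6 libraries). These means are not comparable as they stand, because the length limit treats the types differently. A read from nt 11 that ends 22 nt before the mature end is 39 nt long in C, below the limit, but 40 nt in F and 41 nt in H. Of the reads from nt 11, 96 of 141 in F and 64 of 93 in H had exactly this end, which no C read in the table could have. At the ends 20 and 21 nt before the mature end, open to all types, C had 63 and 35 reads, F had 26 and 19 and H had 19 and 9. These counts come from unequal totals of 66759, 38036 and 17148 reads. As mean shares they were 0.118%, 0.0803% and 0.0834% at 20 nt, and 0.137%, 0.0681% and 0.122% at 21 nt, in C, F and H. In the alignment used for the tests, nt 12 of H matches nt 11 of C and F. H reads from nt 12 with these ends numbered 7 and 8.

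The letters around the cut places were then read off the sequences, as a description chosen after the values were seen. Starts at nt 4, 7 and 11 all follow a purine and begin with T (G before T at nt 4 and 11, A before T at nt 7), and no other start from nt 2 to 12 does. The ends at 28, 25 and 22 nt all follow A and precede T, and no other end from 20 to 31 nt does, and the site 19 nt before the mature end also lies between A and T. Fragments with a purine-T start held 58.3% of reads in C, 47.9% in F and 45.7% in H, from 16 of 56, 20 of 69 and 18 of 63 sequences. Fragments with such an end held 75.6%, 69.2% and 61.3%, from 18, 21 and 18 sequences. Without CC replicate 1 the C shares were 41.7% for starts and 69.2% for ends. These shares are not independent of the counts by start and by end above.

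Single fragments followed from these main starts and ends. In type C the fragment from nt 4 to 43 had the highest mean share, 0.579% ± 0.743 (mean ± SD, n = 6 libraries), and it was present in all 6 libraries. It made up 2.09%, 0.390% and 0.265% of reads in CC and 0.273%, 0.323% and 0.139% in HC. Without CC replicate 1 its mean was 0.278% ± 0.092, below that of the fragment from nt 2 to 43, which was 0.359% ± 0.211 in those libraries. With all libraries the fragment from nt 2 to 43 averaged 0.344% ± 0.193, at 0.267%, 0.373% and 0.512% in CC and 0%, 0.517% and 0.392% in HC. The order of these fragments in C therefore rested on 1 library. The fragments from nt 7 to 49, nt 3 to 43 and nt 11 to 50 averaged 0.233% ± 0.341, 0.143% ± 0.142 and 0.137% ± 0.153 in C.

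In F and H the fragment from nt 11 that ended 22 nt before the mature end had the highest mean share, but not with every library left out. It averaged 0.306% ± 0.175 in F, at 0.228%, 0.221% and 0.336% in FF and 0.0551%, 0.466% and 0.529% in CF. In H it averaged 0.211% ± 0.270, at 0.142%, 0.713% and 0.112% in HH and 0%, 0% and 0.302% in CH. The fragment from nt 2 that ended 28 nt before the mature end came next in both, at 0.270% ± 0.178 in F and 0.201% ± 0.188 in H. In F the fragment from nt 2 led without CF replicate 3, whose share was 1 read (0.324% against 0.261%), and by summed reads (127 against 96). In H it led without HH replicate 2 (0.178% against 0.111%) and without HH replicate 1 (0.241% against 0.225%). In F, the fragment from nt 4 to 44 averaged 0.111% ± 0.0902, that from nt 6 to 46 0.0907% ± 0.215, which rested on 2 reads, and that from nt 7 to 50 0.0838% ± 0.0673. In H, the fragments from nt 11 to 52, nt 12 to 51 and nt 4 to 45 averaged 0.122% ± 0.199, 0.106% ± 0.179 and 0.0929% ± 0.114.

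Whether the internal fragments repeat the ends of the 5′ fragments was asked directly. The 11 ends seen among internal C reads, the 12 among F reads and the 13 among H reads were all also ends of nt 1 reads. This overlap had to arise, because nt 1 reads filled every end that the length limit allows, so only the shares of reads at each end can differ. For a fair comparison of shares, starts at nt 2 to 4 and ends 20 to 28 nt before the mature end were used, since every such combination is long enough in all types, and 12 libraries held at least 20 internal reads of this kind.

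In the 12 libraries kept for this window the main end was the same for both kinds of reads. The end at 28 nt held 63.9% ± 10.1 of the internal reads and 64.3% ± 11.2 of the nt 1 reads (mean ± SD, n = 12 libraries), a difference of -0.42 percentage points with an SD of 4.05 and a range over libraries from -8.83 to 5.22. It was the most used end of both kinds of reads in 12 of 12 libraries. The end at 26 nt held 12.2% ± 6.05 of internal and 12.9% ± 5.35 of nt 1 reads, and the end at 22 nt 8.91% ± 5.73 and 6.83% ± 2.57. The internal share at 22 nt was higher in 7 of 12 libraries, with a mean difference of 2.09 points and a range from -4.52 to 14.1.

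By an exact two-sided permutation test that flipped the sign of the difference in each of the 12 libraries, 0 of 9 ends differed, with adjusted p from 0.650 to 0.729 and unadjusted p of 0.136 or more. The test does not show that the profiles are the same, since single libraries differed by the ranges given above. Over starts at nt 2 to 7 and ends at 20 to 25 nt, in 7 libraries, the end at 22 nt held 54.7% of internal and 46.1% of nt 1 reads and was higher in 6 of 7 (exact permutation test, p = 0.0312, adjusted p = 0.141), and the end at 21 nt was lower in 6 of 7 (p = 0.0469, adjusted p = 0.141). In the 8 libraries with at least 50 internal reads, the end at 26 nt was lower in 7 of 8, at 10.01% against 12.7% (exact permutation test, p = 0.0156, adjusted p = 0.0703), and so was the end at 24 nt, at 0.148% against 0.556% with the same p. With so few libraries a single end could not reach an adjusted p of 0.05, the smallest being 0.0938 for 7 libraries and 0.0703 for 8. Summed by type, the 5 most used ends in C came in the same order for both kinds of reads, 28, 26, 22, 25 and 27 nt. In F the ends at 26 and 22 nt changed places, with 9.63% and 11.3% of 353 internal reads against 11.2% and 8.80% of 9791 nt 1 reads. In H, with 118 internal reads, 28 and 26 nt led in both.

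The ends after GA, at 28 and 22 nt, together held 76.4% of the 1625 internal reads of the window and 74.4% of the 31538 nt 1 reads. By type, the shares of internal and nt 1 reads were 78.2% and 76.2% in C, 74.8% and 74.7% in F, and 63.6% and 57.9% in H. Summed over libraries, both kinds of reads thus used these ends less in H than in the other types, as a description without a test. HH replicate 2 held 64 of the 118 internal H reads, and single libraries overlapped. At 28 nt the internal share was 64.1% in HH replicate 2 and 58.6% in CF replicate 2. The nt 1 share there was 62.9% in HH replicate 2 and 59.0% in FF replicate 3.

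Reads that lack only nt 1 kept a similar ratio to nt 1 reads at the main ends in C and F. In C, for 100 reads from nt 1 there were 1.99 reads from nt 2 at the end 28 nt before the mature end, 2.001 at 26 nt, 2.34 at 22 nt and 2.44 at the site. In F these ratios were 1.97, 2.19, 2.09 and 2.12. In H they were 2.88, 2.12, 0.971 and 3.35, where 34, 9, 1 and 68 reads from nt 2 stood behind them. The C ratios moved little without CC replicate 1, to 2.04, 1.89 and 2.45 at 28, 26 and 22 nt.

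Reads from nt 4 and nt 7 kept no such constant ratio. From nt 4, C had 3.49 reads for 100 nt 1 reads at 28 nt, 1.78 at 26 nt, 4.20 at 22 nt and 1.37 at the site. The value at 28 nt was 1.35 without CC replicate 1, whereas the other values, that at the site included, still contain this library. From nt 7, C had 14.9 reads for 100 nt 1 reads at 22 nt, 11.1 at 25 nt and 5.32 at the site. The value at 22 nt was 7.08 without CC replicate 1. Those at 25 nt and at the site still contain this library, so 7.08 cannot be set against them. In F the ratios from nt 7 were 4.99 at 22 nt, 2.70 at 25 nt, from 11 reads, and 3.30 at the site. In H they were 2.91 at 22 nt, from 3 reads, 7.69 at 25 nt, from 8 reads, and 4.19 at the site. In F and H the 2 ends before the site thus lay on opposite sides of the site value.

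Which end followed a start also differed between starts. Of the C reads from nt 2, 3 and 4, 65.8%, 57.5% and 72.7% ended at 28 nt. Of the C reads from nt 7, for which an end at 28 nt would be too short to be held, 67.6% ended at 22 nt and 22.4% at 25 nt. In F 43.9% of the reads from nt 7 ended at 22 nt, and in H 3 of 26 did. Of the C reads from nt 8, 41 of 50 ended at 22 nt, and 36 of the 50 came from CC replicate 1. From nt 10, where the length limit leaves only the ends at 20, 21 and 22 nt open in C, 21 of 27 did.

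The starts, in turn, were compared with those of internal reads that ended at the site, over starts at nt 2 to 7 and, for the reads before the site, ends at 20 to 25 nt. Start nt 7 led in both, with 54.7% of 587 reads before the site and 46.3% of 2660 at the site in C, 42.5% of 193 and 43.3% of 1321 in F, and 33.3% of 48 and 37.4% of 227 in H. Start nt 2 held less of the C reads before the site (10.9%) than of those at the site (21.2%), and start nt 4 more (18.7% against 11.9%). Without CC replicate 1, 239 of the 587 C reads before the site and 1778 of the 2660 at the site were left. The shares before and at the site were then 20.1% and 24.7% for nt 2, 13.4% and 10.7% for nt 4 and 46.4% and 42.3% for nt 7. In F the shares of start nt 2 were 22.8% and 27.9%.

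To ask whether single fragments differed between mtDNA types or nuclear genomes, counts were tested with edgeR over all fragments of the table that can be listed in all 3 types. Of 65 such homologous fragments of this class, 2 had enough reads to be tested, those from nt 2 and nt 4 that end 28 nt before the mature end. Between types C and H 0 of these 2 were called, where 44.8% of the 67 tested fragments of the table were. Between F and H 0 of 2 were called (41.8% of all tested), between C and F 0 of 2 (1.49%), between HC and CC 0 of 2 (0.00%), between HH and CH 0 of 2 (0.00%) and between FF and CF 0 of 2 (34.3%). The unadjusted p was under 0.05 in 3 of these 12 tests, and with DESeq2 the calls were both fragments between C and H, with 0 elsewhere.

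The fragment from nt 4 was nearest to a call. Its library shares ran from 0.139% to 2.09% for type C, with maxima of 0.213% among F libraries and 0.273% among H libraries. It therefore passed the read filter mainly through C libraries, so its being tested was tied to a high C share. How far this selection favours C in the comparisons with H and F was not tested. The share of this fragment averaged 0.579% in C and 0.0929% in H, with a log2 difference of 1.78 ± 0.78 (SE, edgeR adjusted p = 0.0578). Under DESeq2 it was 2.58 ± 0.79 (adjusted p = 0.00382), under TMM scaling 2.54 ± 0.75 (edgeR adjusted p = 0.00813), and without CC replicate 1 it was 1.04 ± 0.77 (edgeR adjusted p = 0.313). Its adjusted p over all alternatives ranged from 0.00382 to 0.313. The scaling moved the median of all 67 fragments from -0.65 to 0.40 under TMM, and relative to that median the fragment's change was 2.43 with the table total and 2.14 under TMM. Against F, where its share averaged 0.111%, the change was 1.91 ± 0.75 (edgeR adjusted p = 0.313). The fragment from nt 2 changed by 0.75 ± 0.68 between C and H (edgeR adjusted p = 0.378).

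Reads were also pooled by end. Of 11 end pools of this class that can be listed in all types, 4 were tested, those at 20, 22, 26 and 28 nt. By edgeR, 0 of the 4 were called between C and H, where 8.11% of the 37 pools tested in the table were. Likewise 0 of 4 were called between F and H (21.6% of all tested), between C and F (2.70%), between HC and CC (0.00%), between HH and CH (0.00%) and between FF and CF (10.8%). The unadjusted p was under 0.05 in 3 of these 24 tests, and with DESeq2 there was 1 call, the end at 22 nt between HC and CC.

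Between nuclear genomes on type C mtDNA, the end pool at 22 nt was lower in HC, at 0.122% against 0.832% in CC, with a log2 difference of -2.85 ± 0.85 (SE, edgeR adjusted p = 0.0521). It was lower in 3 of 3 HC libraries (1, 2 and 8 reads) than in any CC library (259, 85 and 76 reads). Under DESeq2 the change was -2.60 ± 0.80 (adjusted p = 0.0134), and without CC replicate 1 it was -1.81 ± 0.88 (edgeR adjusted p = 0.290). Over all alternatives the adjusted p ranged from 0.0104 to 0.290, and it passed in 13 of 24. The high CC counts helped this pool to pass the read filter, so its being tested was tied to a high CC share. How far this selection favours CC was not tested. The CC libraries were also the deeper ones, and the part of depth in this difference was not tested. The nt 1 reads showed the same order of CC and HC at this end. In the main window used above to compare ends, 9.85%, 8.16% and 7.16% of nt 1 reads ended at 22 nt in CC. In HC these shares were 0.962%, 4.01% and 3.03%. HC replicate 1, with 104 nt 1 reads and 9 internal reads there, was not kept for that comparison. Whether the internal difference goes beyond that of the nt 1 reads was not tested.

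Between types, the pool at 28 nt averaged 1.07% in C and 0.328% in H, with a log2 difference of 1.35 ± 0.56 (SE, edgeR adjusted p = 0.104), and it passed only in the 2 alternatives that left out HH replicate 2 (2.06 ± 0.57, adjusted p = 0.00564) or HC replicate 1 (1.34 ± 0.48, adjusted p = 0.0320). Without CC replicate 1 it was 1.04 ± 0.59 (edgeR adjusted p = 0.278). The restriction to fragments listable in all types removed most H reads at 22 nt, where 64 of 120 started at nt 11 and 36 at nt 12. The H mean at that end was 0.390% with all starts and 0.0727% with the shared ones, against 0.520% and 0.214% in F and 0.477% with either in C. With the shared starts, C and H differed at 22 nt by 1.74 ± 0.77 on the log2 scale (edgeR adjusted p = 0.119).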

How the data were processed

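Liver small RNA of 18 libraries was analysed from the deposited table of raw read counts per unique sequence. Per their methods, the authors extracted UMIs (UMI-tools 1.1.6), trimmed reads (Cutadapt 5.0), mapped reads with Bowtie 1.3.1 (no gaps, no mismatches) to mature mt-TR of the matching strain, collapsed UMIs and removed sequences that mapped elsewhere in mm10. Each of the 18 columns belonged to a labelled sample, and 0 were left over. The table holds a length class, so shares are of the column total, not of all mt-TR reads.

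Leading dashes gave the start and trailing dashes the distance from the mature end, checked against each type's sequence (C from GENCODE M21 plus CCA, F and H from the study's supplement). Homologous fragments share a start in the alignment, with gaps left in the T and A runs, and an end distance. Of 519 in the table, 86 were members, and 450 and 65 of these could be listed in all types. Counts were tested with edgeR 4.0.16 (quasi-likelihood, table total as library size, filterByExpr, all 6 groups in 1 fit, Benjamini-Hochberg adjusted p under 0.05, R 4.3.3, limma 3.58.1), with DESeq2 1.42.0 as an alternative. End profiles were compared by exact sign-flip permutation over 4096 arrangements, adjusted over 9 ends. Both tests were tested on simulated data. Python 3.11.15, numpy 2.4.6, pandas 2.3.3 and scipy 1.17.1 were used. Where no reads were seen, 3 reads set the upper limit.

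Named were the 3 ends and starts with the highest mean share, the 5 fragments with the highest mean share per type, up to 3 called features per comparison and the nt 1 fragments of the most used ends. Starts and ends outside this rule were named after their values were seen. Members and lists were chosen with earlier results of these data known.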

Additional observations from a re-analysis of the deposited data

Results flagged for a closer look

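In each type, the highest and lowest of 6 libraries were compared with the others for the whole class and for the ends at 28, 22 and 26 nt, by the gap to the nearest library as a part of the range. Of 12 such comparisons 5 passed Dixon's 95% critical value, and chance alone flags about 1 in 20. CC replicate 1 stood apart in 3 of them. Its share of internal fragments that end before the site was 5.82%, against 1.38% to 2.59% in the other C libraries. Its shares at the ends 28 and 22 nt before the mature end were 2.39% and 1.69%, against 0.544% to 0.970% and 0.101% to 0.487%. These 3 measures share reads. HH replicate 2 had 1.35% at the end 22 nt before the mature end, against 0% to 0.431% in the other H libraries. CF replicate 3 had 0.529% at the end 26 nt before the mature end, against 0.110% to 0.254% in the other F libraries, and this share was 1 of 189 reads.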

How the results depend on the processing

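Counts of called members changed in 4 of the 12 edgeR comparisons. For single fragments between C and H, 0 were called, against 2 under TMM scaling and 2 under DESeq2, 1 without a filter and 1 in libraries of 1000 or more reads, and 0 to 2 when 1 library was left out. The fragment called without a filter and in deep libraries was that from nt 7 ending 22 nt before the mature end, with 3 H reads. Between F and H, 0 to 1 were called when 1 library was left out. For end pools between C and H, leaving out 1 library gave 0 to 1. For end pools between HC and CC, 1 was called by DESeq2, 1 in libraries of 1000 or more reads and 1 with the replicate number as a block (adjusted p = 0.0449, edgeR), and 0 to 1 with 1 library left out. In the other 8 comparisons 0 members were called under every alternative run. Correlations between the deviations of same-numbered libraries were mixed, with 18 of 45 over 0.1 and a range from -0.62 to 0.75. In 1 of 15 pairs of strains every correlation was over 0.1 (HH and CF, at 0.17, 0.75 and 0.15). They cannot exclude a batch shared by libraries of the same number. The block changed no other call. Gaps at the right changed no count.

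For all 67 fragments between C and H, edgeR called 5 higher and 25 lower, TMM scaling 22 and 15 and DESeq2 22 and 18. For F against H these were 3 and 25, 18 and 16, and 21 and 16, and for FF against CF 0 and 23, 1 and 7, and 2 and 8. Over the end pools, F against H gave 2 higher and 6 lower, 0 and 8, and 1 and 6, C against H 1 and 2, 0 and 2, and 1 and 2, and FF against CF 0 and 4, 0 and 4, and 1 and 3.

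With reads that do not end in CCA as denominator, the mean share was 2.40% in F and 3.18% in H, against 3.30% in C. Fragments listable in all types gave 0.868% in H, against 1.58% with all members, and 1.38% in F. H lay above F with summed reads (2.09% and 1.85%) and in libraries of 1000 or more reads (2.02% and 1.93%). In the end profile, 0 ends passed with each of the 12 libraries left out. The alternatives with 7 or 8 libraries also gave 0, but a single end could not have passed in them (smallest adjusted p 0.0938 and 0.0703), so these counts say nothing about stability. The start nt 2 alone, the values without CC replicate 1 and the left-out libraries in the end profile and for the leading F and H fragments were added after seeing the data. Libraries under 1000 reads limit the H and CF values most.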
